A study of Mus musculus with 415 samples.

Results

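The regions described here are the broad accessible regions of mouse embryonic stem cells in early differentiation, those that span at least 2000 bases (2 kb) on an autosome. They were chosen by width alone, from the coordinates in the deposited table and with no measured value. Rows on chromosome 9 before position 3100000 were left out. The table has 23180 rows, of which 22677 lie on the autosomes that were analysed. Of these, 22399 are narrower than 2 kb and are called narrower rows below, and all the remaining rows, 1.23% of the 22677, are the broad regions.

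The cells were of the R1 line, a mouse embryonic stem cell line. They were aggregated into embryoid bodies, small spheres of differentiating cells, in hanging drops for 48 hours and then held for 4 days in retinoic acid, labelled as 0.5 mM. Accessibility was measured in single cells by ATAC-seq, in which the Tn5 transposase inserts adapters into open DNA, on a C1 microfluidic instrument. Each sample is 1 cell, all cells had this same treatment and the labels name no separate cultures, so cells were not treated as replicates and nothing was tested between groups.

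Most accessible regions of a mammalian genome are short stretches freed of nucleosomes at a promoter, an enhancer or an insulator. Wider stretches are known from strongly used CpG-rich promoters, from neighbouring regulatory elements that a peak caller joins, and from repeated DNA whose reads pile up at 1 place in the assembly. In a single diploid cell a site has few copies that can be cut, so a region is mostly seen as 1 fragment or none. The table names no genes, and no genome sequence on its build, mm9, was used here. Regions are therefore given by their position as the table writes it, and neither promoter overlap nor base composition was analysed here.

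A value above 0 was taken as an open region in that cell. Values are given in read pairs, where 1 pair is the signal of 2 reads of 74 bases. This unit was read from the values, since 37.6% of all values above 0 equal exactly 1 pair. A median cell had 3859 autosomal rows open, from 741 in the shallowest cell to 12014 in the deepest, and a value of 0 covers both closed DNA and DNA that was not sampled. Intervals are exact (Clopper-Pearson) 95% intervals that cover only the counting of cells or of rows. PCR copies may be among the reads.

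Broad regions were few and mostly only slightly above the width threshold. Their widths ran from 2002 to 3592 bases with a median of 2237 and quartiles of 2098.25 and 2421. Of the broad regions, 79.9% were under 2500 bases, 48 (17.3%) were from 2500 to under 3000 and 8 (2.88%) were 3000 bases or wider. They covered 3.42% of the bases of the autosomal rows and held 3.17% of their signal. A single region, chr17:39979995-39983587, made up much of that signal, and without it the others held 2.49%.

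Regions on both sides of the threshold overlapped in their values. The 3 regions just inside it were chr7:86721927-86723929, chr11:3188621-3190624 and chr10:42893007-42895014, of 2002, 2003 and 2007 bases, and they were open in 16.4%, 40.96% and 23.1% of cells. The 3 just outside it, each narrower than 2000 bases by 1 base, were chr9:119310789-119312788, chr14:118835025-118837024 and chr16:84773388-84775387, and they were open in 40.5%, 28.2% and 33.01%. The median over the 71 regions from 2000 to under 2100 bases was 29.2% of cells, and over rows from 1900 to under 2000 bases it was 31.1%.

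Broad regions were open in more cells than the bulk of the table, yet most were open in a minority of cells. The median broad region was open in 32.2% of all cells, the quartiles were 24.4% and 40.7%, and shares ran from 7.71% to 97.8%. The median narrower row was open in 14.5%. Of the broad regions, 23 (8.27%) were open in at least 50% of cells, where 1.97% of all autosomal rows were, and 73.7% were open in at least 25%, where 22.8% of all rows were. Only 3 (1.08%) were open in under 10% of cells, against 26.9% of all rows. How the submitters chose and joined regions is not known from the labels, so width and share of open cells cannot be taken as independent readings.

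The share of open cells was higher in each wider class. Median shares were 9.40% for rows under 500 bases, 14.5% from 500, 21.9% from 1000, 26.7% from 1500, 30.7% from 2000, 34.1% from 2500 and 45.4% for the 8 regions of 3000 bases or more. Put per length, as the rate −ln(1 − share) for each kb, the median fell from 0.278 in rows under 500 bases to 0.185 from 1500 to under 2000 bases, 0.168 from 2000 and 0.153 from 2500, and it was 0.192 in the 8 regions of 3000 bases or more. No analysed autosomal row was open in fewer than 31 cells. This floor by itself gives short rows a high rate per kb, so nothing is read from that fall. Across the broad regions, width and share had a Pearson correlation of 0.293 and a Spearman correlation of 0.203. Without chr17:39979995-39983587 the Pearson value was 0.228. These correlations describe regions of the same cells and carry no test.

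**Figure D1:**
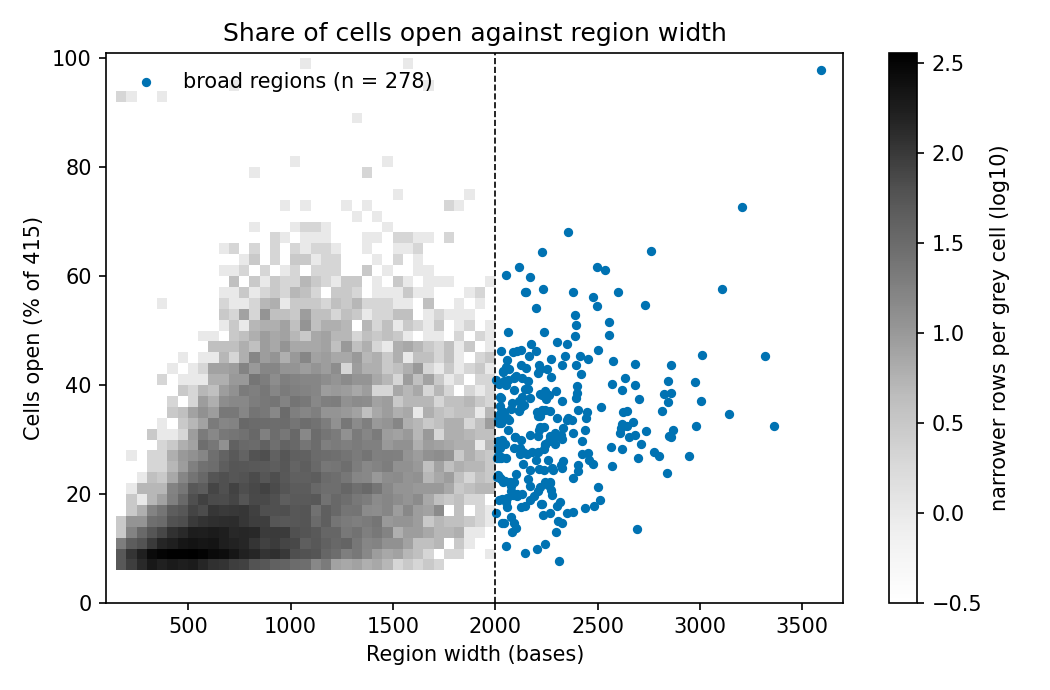
Share of all cells in which a region was open (vertical axis, percent) against region width (horizontal axis, bases). Grey cells count narrower rows on a log10 scale, blue points are the broad regions and the dashed line is the threshold of 2000 bases. Broad regions spread from 7.71% to 97.8%, with a median of 32.2%.

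The most widely open broad region was also the widest. The region chr17:39979995-39983587, of 3592 bases, was open in 97.8% of cells (interval 95.9% to 99%) and at 0 in 9 cells. Its value in open cells ran from 0.676 to 369.8 pairs with a median of 13.2 and a mean of 37.4, and it alone held 0.672% of the autosomal signal. It was the only broad region among 13 autosomal rows with a median of at least 2.5 pairs in open cells, and its mean was far above that of all other broad regions, the highest of which was 2.95.

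The next regions formed a continuous series. The region chr7:6680081-6683288 was open in 72.8% of cells (68.2% to 77%) and had a median of 2 pairs in open cells, with a highest value of 13.2. It was followed by chr13:30076176-30078533 at 68.2% (63.5% to 72.7%), chr4:94717390-94720152 at 64.6% (59.8% to 69.2%) and chr5:109985641-109987871 at 64.3% (59.5% to 68.95%). The intervals of these 4 overlap, and their order was not tested. The chr7 region was the 4th widest at 3207 bases, so the 5 widest include both of the most widely open regions. The other 3 of the 5, chr14:12385700-12389061 (3361 bases), chr18:9211780-9215096 (3316) and chr6:99470523-99473664 (3141) were open in 32.5%, 45.3% and 34.7% of cells.

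At the other end, chr13:56085427-56087739, of 2312 bases, was open in 32 cells (7.71%, 5.33% to 10.7%), with a median of 1 pair and a highest value of 4.85. The regions chr5:75939791-75941937, chr6:144285554-144287757, chr18:28030561-28032613 and chr8:51605304-51607547 were open in 38, 41, 43 and 45 cells. The lowest of these shares lies near the floor of the analysed autosomal rows, each of which was open in at least 31 cells.

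Each cell opened a sample of the broad regions that followed its depth. Between 18 (6.47%) and 83.8% of the broad regions were open in a cell, with a median of 87 regions (31.3%) and quartiles of 20.5% and 44.6%. No cell had all of them open. The cells below the median depth, taken as the number of narrower rows open and called the shallower cells, had a median of 20.5% of the broad regions open, and the remaining cells 44.6%. A depth fit then gave every region and every cell 1 rate, so as to match the open cells of each region and the open rows of each cell. Against it, a cell's count of broad regions was between 0.815 and 1.19 times the expected one from the 5th to the 95th percentile of cells. The lowest was 0.651 and the highest 1.74.

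The typical signal in an open cell was 1 read pair even in these wide regions, with values above it more frequent than values below it. The median value in open cells was exactly 1 pair in 92.4% of broad regions, above 1 pair in 21 and below it in none. Among the 38371 open values of broad regions, 36.2% were exactly 1 pair, 39.4% were above it and 24.4% were below it. The mean per open cell had a median of 1.36 pairs over broad regions, with quartiles of 1.24 and 1.52, and it exceeded 2 pairs in 11. Narrower rows had a median of 1.10.

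Signal per open cell also went with the share of open cells, so each broad region was set beside all narrower rows whose number of open cells was within 5 of its own. This gave 16 to 5412 narrower rows for a region, with a median of 636. The 2 most widely open broad regions had fewer than 10 such rows and were not compared. At an equal share, the mean signal was higher than the median of the narrower rows in 71.01% of broad regions and lower in 80 regions. The median difference was 0.0597 pairs, with quartiles of -0.0105 and 0.136. The typical broad region lay at percentile 72.2 of its narrower rows, and 39 (14.1%) lay above percentile 95.

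The larger mean came with a heavier upper end. More than 1 pair was seen in a median of 35.2% of open cells in broad regions and 33.1% in narrower rows of equal share, a median difference of 1.501 percentage points with quartiles of -1.98 and 4.59. The 10% of open cells with most signal held 26.3% of a broad region's signal and 24.8% in narrower rows. Values below 1 pair differed less, with a median of 26.5% of open cells in broad regions and 27.2% in narrower rows. Per kb, by contrast, broad regions were sparser in every comparison, with a median of 0.599 pairs per kb in an open cell against 1.35. That direction is nearly fixed by the choice of wide regions, whose median width was 2235 bases where narrower rows of equal share had 1005.5.

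**Figure D2:**
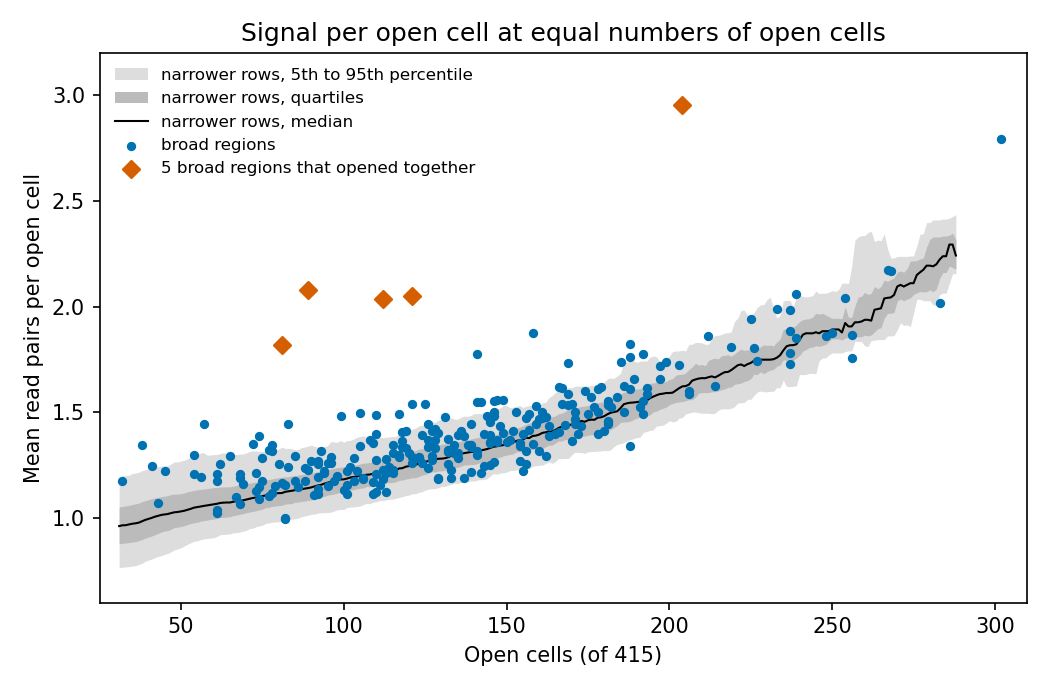
Mean read pairs per open cell (vertical axis) against the number of open cells (horizontal axis) for broad regions (blue points and orange diamonds). Grey bands give the 5th to 95th percentiles and the quartiles, and the black line the median, of narrower rows with a number of open cells within 5. The widely open region on chromosome 17 (mean 37.4 pairs) lies outside the axes, and the 5 regions marked by diamonds stand above the band at their share.

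After the region on chromosome 17, the highest mean signal was in chr11:3034371-3036926. This region was open in 49.2% of cells (44.2% to 54.1%), where values ran from 0.128 to 25.3 pairs with a median of 1.73 and a mean of 2.95. The median of such means over narrower rows of equal share was 1.62. It was followed by chr7:6680081-6683288 with 2.80, chr5:109985641-109987871 with 2.18 and chr4:94717390-94720152 with 2.17 pairs. The lowest means were in chr12:54352794-54355071 (0.997), chr1:130487944-130490029 (1.002), chr8:111342721-111344814 (1.02), chr11:83665098-83667129 (1.04) and chr7:86721927-86723929 (1.07 pairs), all open in 14.7% to 19.8% of cells.

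Broad regions were spread over all 19 autosomes, from 8 on chromosome 16 to 24 on chromosome 11. As a percent of the rows of each autosome they ran from 0.630% on chromosome 4 (10 regions, interval 0.303% to 1.16%) to 1.98% on chromosome 10 (22 regions, 1.25% to 2.98%). These intervals do not overlap each other or the share of 1.23% over all autosomes, and the intervals of the other 17 autosomes contain it. Broad regions on chromosome 10 were 1.62 times as many as its number of rows would give, and those on chromosome 4 were 0.514 times as many. Among rows of at least 1500 bases the same ratios were 1.25 and 0.735. These 2 autosomes are the extremes of 19, and no difference between autosomes was tested.

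**Figure D3:**
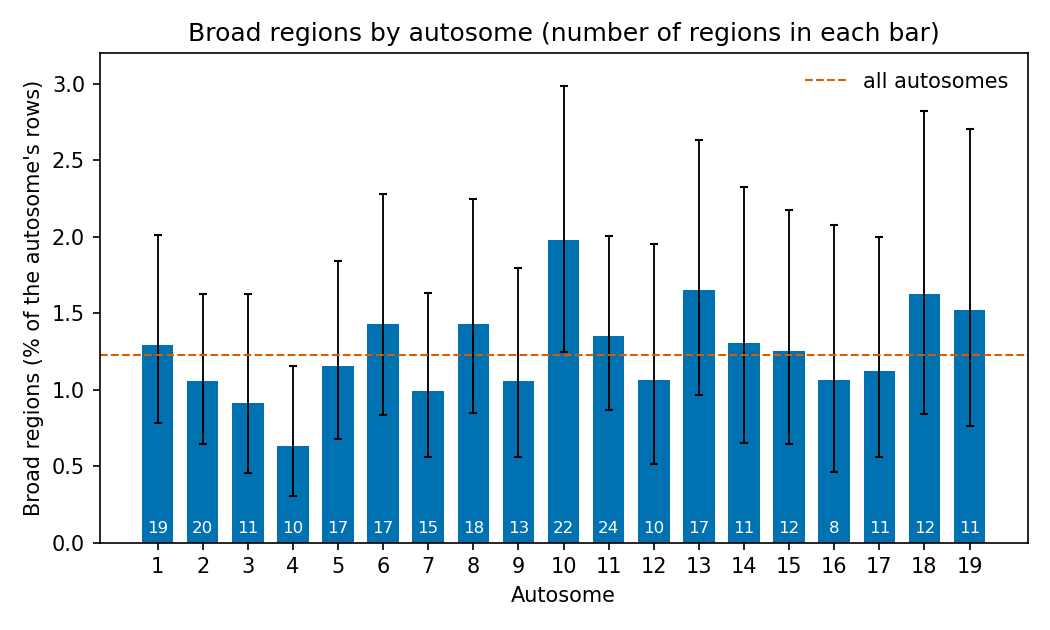
Broad regions as a percent of all rows of each autosome (bars), with exact 95% intervals that count rows only (whiskers) and the share over all autosomes (dashed line). Numbers in the bars count broad regions, and only the intervals of chromosomes 4 and 10 leave out the dashed line at 1.23%.

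Broad regions mostly lay far from each other. These distances depend on how few broad regions there are, and they were not compared with equally few narrower rows. The nearest other broad region was a median of 3.21 Mb away, and 65 (23.4%) had one within 1 Mb, 9 (3.24%) within 100 kb and none within 10 kb. The closest pair was chr8:19927918-19930628 and chr8:19940742-19943544, with 10114 bases between them, and chr8:20031077-20033266 lay 87533 bases beyond. The longest stretch between neighbouring broad regions was 50.7 Mb on chromosome 16, from 35156676 to 85899676.

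Their distance to other rows of any width was much like that of narrower rows. The nearest row was a median of 24581.5 bases away in the compared broad regions and 21819 bases in narrower rows of equal share, and 52.5% were farther and 47.5% nearer than their narrower rows. The number of rows within 100 kb had a median of 3 in both. For the 74 broad regions that had a row within 10 kb and could be compared, the correlation over cells of depth-corrected values with that neighbour had a median of 0.0378, and 0.0288 in narrower rows. It was higher in 40 regions and lower in 34, with quartiles of the difference of -0.0241 and 0.0388.

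Evenness over cells was first read from depth. The shallower cells were 49.9% of all cells, and would give that share of a region's open cells if depth played no part. Broad regions took a median of 29.9% of their open cells from the shallower cells, and narrower rows of equal share took 29.8%. Region by region, the median difference was -0.468 percentage points (quartiles -2.67 and 1.91), with 44.9% of broad regions above their narrower rows and 53.99% below. In the regions of at least 3000 bases, without the 2 most widely open, which could not be compared, it was 0.902, the opposite direction. It was -0.822 when open required more than 1 pair and -0.716 with depth as total signal. The typical broad region lay at percentile 42.97, with 14 (5.07%) above percentile 95 and 21 (7.61%) below percentile 5. Most broad regions thus lay within the spread of narrower rows of equal share.

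Single regions departed from that pattern in both directions. The region chr7:88296147-88298368 took 46.7% of its 75 open cells from the shallower cells, chr8:19927918-19930628 took 46.3%, chr1:87487712-87489787 took 42.7% of 89, chr8:20031077-20033266 took 41.98% of 81 and chr10:107881673-107883968 took 38.9% of 54. The medians of narrower rows of equal share stood between 26% and 29.1%. The chr10 region lay at percentile 94.8 of those rows, the lowest percentile of this list. The regions furthest below their narrower rows were chr13:56085427-56087739 with 12.5%, chr16:85899676-85901783 with 15.9%, chr8:9770423-9772478 with 16.4%, chr4:82150227-82153066 with 17.2% and chr2:51002513-51004840 with 18.4%. There the medians of narrower rows of equal share were 25.8% to 29.5%. The chr13 region lay at percentile 4.19 of its narrower rows, the highest percentile of this second list. The region chr11:18776730-18778856 tied with the chr8 region of this second list at a difference of -10.03 points. These regions were picked for the size of the departure, so they lean to extremes.

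**Figure D4:**
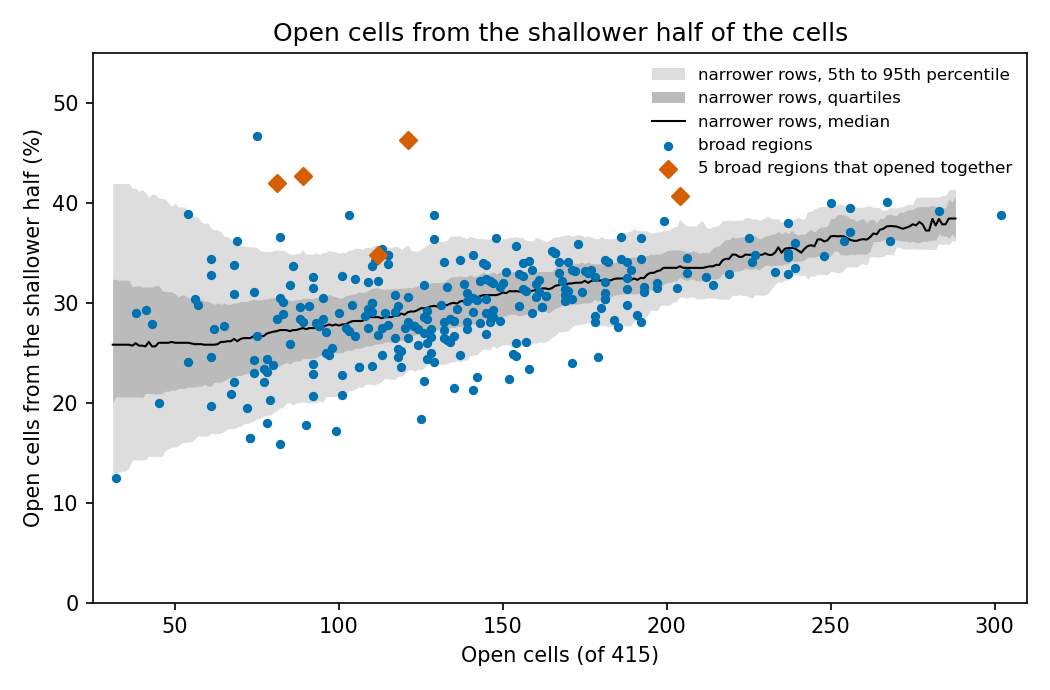
Percent of a region's open cells that came from the shallower cells (vertical axis) against its number of open cells (horizontal axis). Bands and line are narrower rows of equal share as percentiles and median, blue points are broad regions, and the widely open region on chromosome 17 lies outside the axes. Broad regions scatter around the line, and 4 of the 5 regions marked by orange diamonds lie above the band.

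A set of 5 broad regions on 3 chromosomes opened in the same cells more often than the depth fit gave. Over all 38503 pairs of broad regions, the correlation of depth-corrected values over cells had a 5th to 95th percentile of -0.0793 to 0.0876. The 10 highest values were exactly the 10 pairs among chr1:87487712-87489787, chr8:19927918-19930628, chr8:19940742-19943544, chr8:20031077-20033266 and chr11:3034371-3036926, at 0.254 to 0.386. The next pair had 0.241. The highest of them joined different chromosomes, chr1:87487712-87489787 and chr8:19927918-19930628, which were open together in 54 cells where the depth fit gave 33.6. All 5 were open in 19 cells (4.58%), where 1.01% was expected, and none was open in 33.3%, where 23.6% was expected. The mean of the depth-corrected values of the 5 regions still had a correlation of -0.278 with the rank of a cell's depth. Some relation to depth thus remained in these values, and its part in the shared opening was not tested. The set was chosen after these values were seen.

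The same 5 regions carried more signal per open cell than narrower rows of equal share. Their means follow, with the median over narrower rows in brackets. On chromosome 1 the mean was 2.08 pairs (1.14). On chromosome 8 the means were 2.05 (1.25), 2.04 (1.22) and 1.82 (1.12) in order of position, and on chromosome 11 the mean was 2.95 (1.62). They took 34.8% to 46.3% of their open cells from the shallower cells. Those on chromosomes 8 and 11 had 16 to 23 rows within 100 kb, the one on chromosome 1 had 0, and the median broad region had 3. All 5 were open most often, relative to the depth fit, in the largest of 3 cell clusters described next, at 1.24 to 1.31 times the expected number.

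Signal in some other rows moved with these 5 regions. The 4 rows left out on chromosome 9 held 0% to 3.35% of a cell's signal, with a median of 0.154%, and the 13 rows of very high signal held 1.20% to 37.6%, with a median of 5.24%. The depth-corrected values of each of the 5 regions had a correlation with the rank of a cell's chromosome 9 share of 0.362 to 0.482, where the other broad regions ran from -0.148 to 0.176. With the rank of the share in rows of very high signal it was 0.398 to 0.498, and -0.145 to 0.152 in the others. Among narrower rows, 0.509% had a correlation of at least 0.2 with the mean of the 5. Of the 20 highest, 11 lay on chromosome 8 between positions 19694238 and 19972100, and 6 on chromosome 11 between 3032033 and 3087889. Both stretches contain regions of the set, so these rows lay close to it. They were led by chr11:3032033-3033716 at 0.560, chr8:19762871-19764033 at 0.492, chr11:3087325-3087889 at 0.486 and chr11:3059577-3060087 at 0.480. The other 3 lay on chromosomes without a region of the set, chr16:11144011-11144389 at 0.468, chr4:145742425-145743815 at 0.410 and chr5:15127452-15129144 at 0.407. No other broad region reached 0.2. The part of these rows in the shared opening was not tested.

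Evenness was next read over clusters of cells. Cells were divided into 3 clusters from narrower rows only, so that no broad region took part. Rows of odd autosomes were read in clusters made on even autosomes and the reverse. The 2 divisions placed 93.3% of cells alike (adjusted Rand index 0.801), and on all narrower rows the clusters held 46.3%, 27.2% and 26.5% of cells with medians of 3536.5, 4693 and 3629 open rows. Over all broad regions, open values were 1.03, 0.992 and 0.953 times the expected number in clusters 1, 2 and 3.

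A minority of broad regions differed between clusters by a 2-fold rule, and most of these were low in cluster 3. The rule takes the observed over expected number of open cells in a cluster against that in all other cells. Of the broad regions, 33 (11.9%) reached a ratio of at least 2 or at most 0.5 in some cluster, where 38.7% of all autosomal rows did. In cluster 3, 26 (9.35%) were lower and 5 (1.80%) higher, beside 23.2% and 10.6% of all rows. In cluster 2, 6 (2.16%) were higher and 3 (1.08%) lower, beside 9.23% and 9.43%. In cluster 1, 2 (0.719%) were higher and 2 lower, beside 7.32% and 11%. Among narrower rows of equal share, 9.06% passed the rule in some cluster, against 38.7% of all rows. These counts thus depend on the share of open cells, and the reason was not tested.

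Read at an equal share, broad regions and narrower rows were closer. In the compared broad regions, 11.96% passed the rule in some cluster and 9.06% of narrower rows of equal share did. The share lower in cluster 3 was 9.42% in broad regions and 6.61% in narrower rows. The range over clusters, the highest minus the lowest ratio of observed to expected, had a median of 0.310 in broad regions and 0.248 in narrower rows. Its median difference was 0.0342 with quartiles of -0.0714 and 0.198, and 58.3% of broad regions were above and 41.7% below their narrower rows. It turned to -0.0124 when more than 1 pair was required for a region to be open, so its direction depends on that definition.

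The 26 regions that were low in cluster 3 lay on 13 autosomes. They were open in 1.92% to 23.1% of that cluster (median 10.1%) and in 12.9% to 51.8% of the other cells (median 31.4%), a gap that the choice of these regions by their ratio largely fixes. Of the 26, 5 were also at least 2-fold higher in cluster 2 and 1 in cluster 1. The region chr8:51605304-51607547 was open in 2 cells of cluster 3 (1.92%, 0.234% to 6.77%), in 13 of cluster 1 (6.37%, 3.44% to 10.7%) and in 30 of cluster 2 (28.04%, 19.8% to 37.5%). Its interval in cluster 2 lies above both others, which overlap. This region was named for its large range over clusters, so such a gap is largely fixed by that choice. These percentages are not corrected for depth.

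Further patterns are shown by single regions, singled out after their values were seen. The region chr12:109681577-109683633 was open in 69.2% of cluster 2 (59.5% to 77.7%), 25% of cluster 1 (19.2% to 31.5%) and 15.4% of cluster 3 (9.06% to 23.8%). The region chr3:8509193-8511597 was open in 37.7% of cluster 1 (30.8% to 44.98%), 19.1% of cluster 2 (12.4% to 27.5%) and 10.1% of cluster 3 (5.15% to 17.3%). The first was most often open in cluster 2 and the second in cluster 1.

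The 2 largest ranges over clusters were in regions that were high in cluster 3. The region chr10:107881673-107883968 was open in 37 cells of cluster 3 (35.6%, 26.4% to 45.6%) and in 5.47% of the other cells (3.22% to 8.61%). The region chr7:88296147-88298368 was open in 46 cells of cluster 3 (42.2%, 32.8% to 52.04%) and in 9.48% of the others (6.44% to 13.3%). Both were also among the 5 regions that took most open cells from the shallower cells relative to narrower rows. After chr8:51605304-51607547, the next largest ranges were in chr5:75939791-75941937, highest in cluster 3 at 1.90 times the expected number, and chr5:104537685-104539742, highest in cluster 2 at 1.67 times. Against narrower rows of equal share, the ranges of the chr10 and chr7 regions lay at percentiles 97.3 and 99.1. That of chr8:51605304-51607547 lay at 87.7, that of chr5:75939791-75941937 at 69.4 and that of chr5:104537685-104539742 at 94.6.

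**Figure D5:**
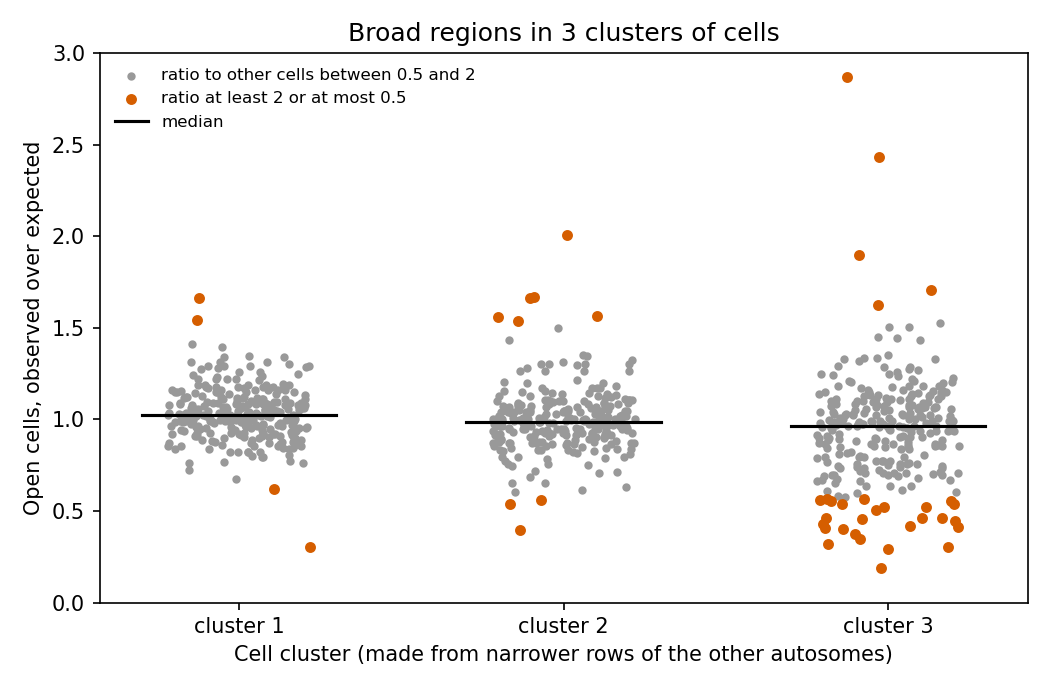
Observed over expected number of open cells for each broad region (points) in 3 cell clusters, with medians as lines. Orange points have a ratio to all other cells of at least 2 or at most 0.5; 26 of them lie low and 5 high in cluster 3, and the medians stand at 1.02, 0.987 and 0.964.

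Cells were also divided by the order of their title numbers, whose meaning the labels do not give. In 4 consecutive sets of title numbers, open values of broad regions were 0.983, 0.995, 1.004 and 1.02 times the expected number. The range over these sets had a median of 0.267 in broad regions and 0.296 in narrower rows of equal share, with a median difference of -0.00551 and 47.8% of regions above and 52.2% below. This is small beside the quartiles of the difference, -0.0868 and 0.0940.

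Broad regions on different chromosomes were almost uncorrelated over cells once depth was taken into account. Over pairs on different autosomes the mean correlation was 0.00227, against 0.00113 in narrower rows weighted to the same numbers of open cells. The mean of each autosome's regions with those of the others was above 0 on 18 of 19 autosomes and above that of narrower rows on 16, with a standard deviation over autosomes of 0.00137. Values this small are a description and no finding. On the same chromosome, 41 pairs of broad regions up to 1 Mb apart had a mean of 0.0333, pairs at 1 to 10 Mb had 0.0131 and 1783 pairs farther apart had 0.00877. The pairs up to 1 Mb include the 3 among the regions of chromosome 8 that opened together, at 0.254 to 0.312, which raise that mean. Medians in the same order of distance were 0.0210, 0.0135 and 0.00611. No fall with distance is read from these means.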

How the data were processed

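Per the labels' protocols, the libraries were made from single cells transposed with Tn5 on a Fluidigm C1 and amplified by 13 additional PCR cycles. The deposited table holds a signal value for each region and cell, a whole number that was read from the values as aligned bases summed over read pairs of 148 bases. The submitters' processing notes name MACS2 and mm9 without a role. The aligner is not given in the sources used here, nor are duplicate handling and the choice of regions.

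The number of autosomal rows open per cell sets the precision of every share. Cell and region rates were fitted as 1 − exp(−region rate × cell rate), and depth-corrected values are residuals divided by their expected standard deviation. Cells were clustered on a TF-IDF transform (scale 10000) of open values, with components 2 to 10 and k-means from 50 starts (scikit-learn 1.9.0, numpy 2.4.6, Python 3.11.15). The functions were tested on simulated data.

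Regions named are the 5 widest, the 5 open in most and in fewest cells, the 5 with most and with least signal, the 5 most and least drawn from shallower cells relative to narrower rows, the 5 with the largest range over clusters, and 3 on each side of the width threshold. Other regions and narrower rows were named after their values or positions were seen, and not all of them are marked so where they are named. The members and comparisons were chosen with earlier results of these data known. No control samples were analysed here. The sets of 5 and 26 regions, the pairs of broad regions and the measures of neighbours were added later. Alternatives were the width threshold, the definition of open, depth, clustering and the band of equal share. Base composition needs a genome on mm9 and was not run.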

Additional observations from a re-analysis of the deposited data

How the results depend on the processing

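Of 55 recomputed values, 37 stayed within 1.5 times the main value (shares of cells within the interval of the main share), 15 moved farther and 3 changed sign. With a width of at least 1500 bases, 1399 regions qualified, and with 3000 bases 8 did. In these 8 the share of cells open was 45.4%, and the highest autosome, which was not chromosome 10, had 4.76 times its expected number. The 2 most widely open of the 8 had fewer than 10 narrower rows of equal share and were left out of the differences. In the remaining regions the difference in mean signal from narrower rows was 0.132 pairs. The differences in open cells from shallower cells and in the range over clusters turned to 0.902 percentage points and -0.00721. When more than 1 pair was required for open, the share was 11.2%, the median signal 2 pairs, the difference in mean signal 0.114, that in shallower cells -0.822 and that in the range over clusters -0.0124. In cells at or above the median depth the share was 46.2%. With depth as total signal the difference in shallower cells was -0.716, and with 4 clusters that in the range was 0.0197. Narrower rows of at least 1000 bases gave a difference in mean signal of 0.0354. Rows within 0 and 15 open cells gave differences over title numbers of -0.0108 and -0.00911. The causes were not tested. Leaving out the 5 regions that opened together, an alternative added after seeing the data, kept all 7 of its values within these limits. No paired analysis was possible because the labels give 1 group.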
